A study of Mus musculus with 3 samples.

Results

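The genes described are 36 genes of AKT, FOXO and mTOR signalling, taken from a named list of AKT and SGK kinases, GSK3 kinases, FOXO factors, TSC and mTOR complex genes, Rag and RHEB GTPases, S6 kinases, AMPK genes and the responsive genes Ddit4 and Txnip. All 36 were found among the 55200 genes measured in every library. The samples were 3 separately grown cultures of Ba/F3, an interleukin-3 (IL-3) dependent mouse haematopoietic line that serves as the target cell in a study of IgA-dependent killing by neutrophils. The medium of all 3 was RPMI with serum (FCS), penicillin-streptomycin and recombinant murine IL-3, and polyadenylated RNA was sequenced from each. They form 1 group with no treated arm and no culture without IL-3, so the data describe the level of each gene in growing cells and the difference between cultures.

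AKT is recruited to the plasma membrane by the lipid products of phosphoinositide 3-kinase, which IL-3 and other growth factors activate. It phosphorylates FOXO transcription factors, which then leave the nucleus, and it inhibits the TSC complex, which holds the small GTPase RHEB in its inactive form. Active RHEB switches on the mTOR kinase in complex 1 (mTORC1) at the lysosome, where Rag GTPases bring mTORC1 when amino acids are plentiful. mTORC1 drives protein synthesis through S6 kinases, complex 2 (mTORC2) phosphorylates AKT, and AMPK, which senses low energy, opposes mTORC1.

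The libraries held 32044889, 33880292 and 37180883 gene reads in cultures 1, 2 and 3. Levels are given as CPM, the reads of a gene divided by all gene reads of its culture and scaled as counts per 1000000, and levels of different genes are compared as CPM per kb of exonic length. Shares of summed CPM are shares of reads and are not divided by length. With no read, the level of a gene was bounded at 0.0936, 0.0885 and 0.0807 CPM in cultures 1, 2 and 3, the worth of 3 reads, which covers counting error only. Mitochondrially encoded RNA took 1.68%, 1.31% and 1.04% of the reads. Of 4 IL-3 receptor and leukocyte markers (Il3ra, Csf2rb, Ptprc and Spn) all were detected, while of 7 B lineage markers only Cd79a and Cd79b were, and Ebf1 and Rag1 were listed at 0. No T cell or fibroblast marker of 5 each was detected, and of 5 macrophage markers Adgre1 (25.8 ± 1.57 CPM, SD, n = 3) and Csf1r (1.91 ± 0.209 CPM) were, with Mrc1, C1qa and Marco listed at 0.

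A gene was called detected at 1 CPM or more in every culture. Of the 36 pathway genes 30 were detected, beside 19.9% of all genes and 45.9% of protein-coding genes. Sgk1, Foxo1, Foxo6, Rragd, Prkaa2 and Prkab1 were not, and each of them belongs to a family in which another paralogue was read. The detected pathway genes had a median of 12.8 CPM per kb, beside 8.65 CPM per kb over all detected genes. Txnip, an arrestin-like protein that restrains glucose uptake and binds thioredoxin, stood far above the others and held 44.0%, 40.7% and 39.3% of the summed CPM of the 36 genes in cultures 1, 2 and 3. Without Txnip the genes summed to 2372, 2414 and 2459 CPM.

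**Figure D1:**
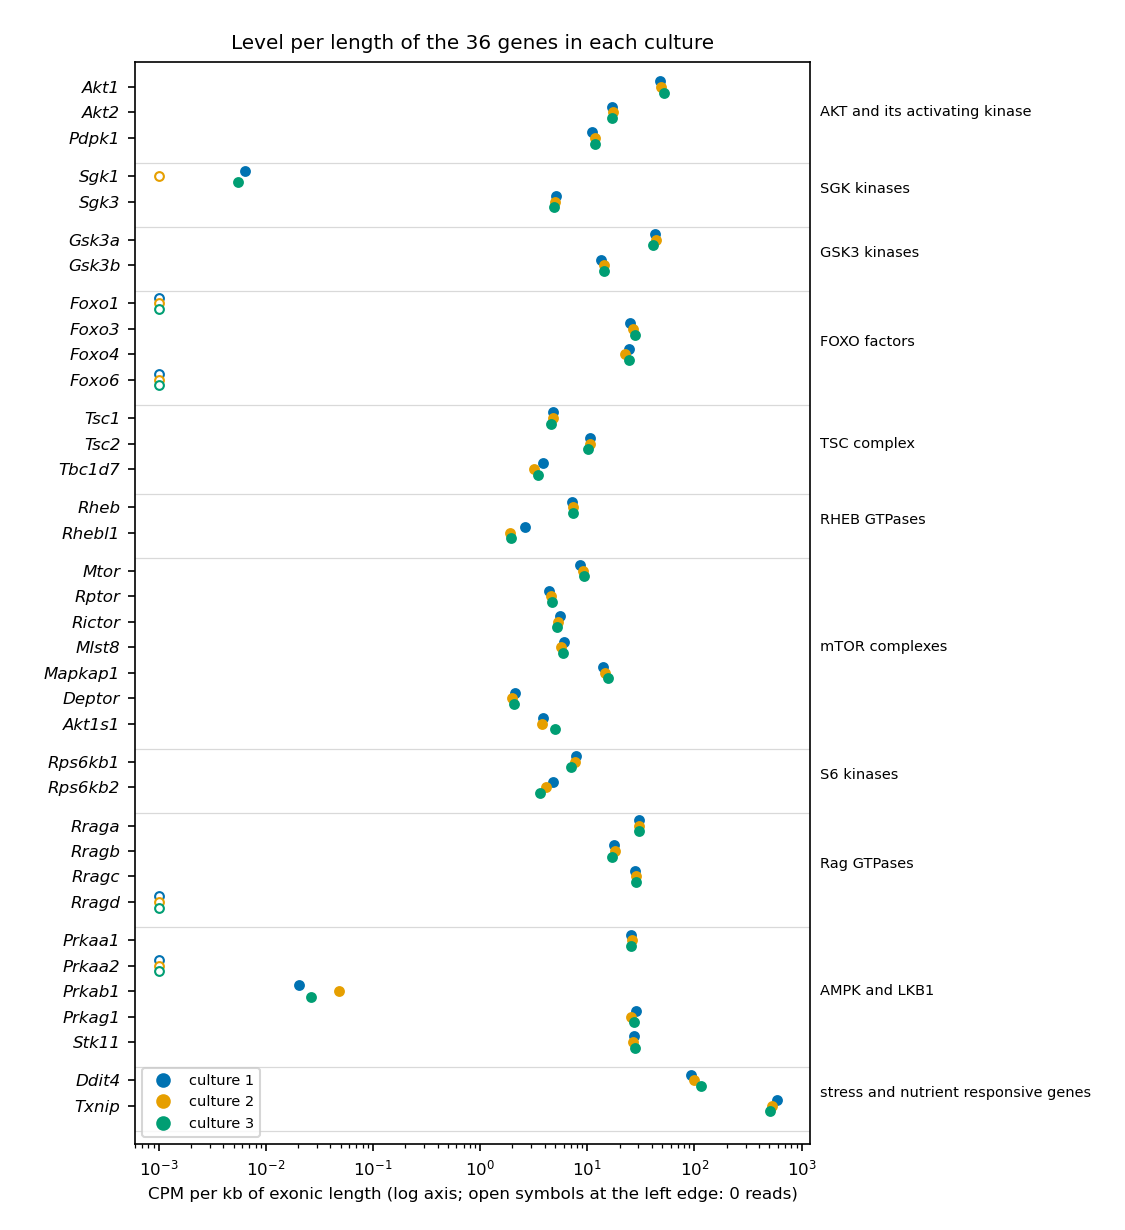
Level of each of the 36 genes in CPM per kb of exonic length (horizontal log axis) in cultures 1, 2 and 3 (colours), grouped by role; open symbols at the left edge are cultures with no read. Txnip (545 CPM per kb) and Ddit4 (102 CPM per kb) stand to the right, and Foxo1, Foxo6, Rragd and Prkaa2 have no read in any culture.

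The AKT kinase genes Akt1 and Akt2 were both expressed. Akt1, the more widely used (chromosome 12, 112653821 to 112674884, minus strand, GRCm38), stood at 194, 199 and 213 CPM in cultures 1, 2 and 3. Akt2, the isoform tied to insulin responses, stood at 121, 124 and 122 CPM. Per kb, Akt1 averaged 49.3 ± 2.41 and Akt2 17.2 ± 0.243 CPM per kb (SD, n = 3), a ratio of 2.87 ± 0.149, and the ranges of the cultures did not overlap. With the longest annotated transcript as the length the ratio was 2.79. About 9.76% of the 50-base words of Akt2 transcripts also occur in other genes, mainly in Akt2-ps, so its level is less certain.

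Pdpk1, the kinase that phosphorylates the activation loop of AKT, SGK and S6 kinases, stood at 121, 130 and 128 CPM, or 11.6 ± 0.455 CPM per kb and 0.235 ± 0.0106 times Akt1 per kb. SGK kinases share many AKT substrates. Sgk1 had 1, 0 and 1 reads in cultures 1, 2 and 3, and Sgk2, outside the list, was listed at 0. Sgk3, which binds endosomal phosphoinositides, stood at 72.6, 71.6 and 70.4 CPM and held 99.9 ± 0.0687% of the family signal per kb.

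GSK3 kinases are inhibited by AKT phosphorylation. Gsk3a stood at 124, 126.1 and 119 CPM and Gsk3b at 131, 141 and 141 CPM. The Gsk3b transcript is longer, and per kb Gsk3a reached 42.4 ± 1.18 against 13.996 ± 0.608 CPM per kb for Gsk3b, a ratio of 3.04 ± 0.169 (SD, n = 3). Without division by length Gsk3b led with 52.8% of the reads, the only change of leader among 11 families. Of the Gsk3a exonic bases 28.3% are also covered by an antisense gene, 9130221H12Rik, and the strand setting of the counting is not given in the sources used here.

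FOXO factors divided into read and unread genes. Foxo3 (chromosome 10, 42181841 to 42276755, minus strand) stood at 189, 204 and 213 CPM in cultures 1, 2 and 3, and Foxo4 (chromosome X, 101254528 to 101260873, plus strand) at 85.1, 78.3 and 84.7 CPM. Per kb they were close, with 26.7 ± 1.65 CPM per kb for Foxo3 and 23.7 ± 1.09 for Foxo4, or 52.9 ± 2.11% and 47.1 ± 2.11% of the family. Foxo1 (chromosome 3, 52268336 to 52353221, plus strand), a central factor of B lymphoid development, and Foxo6, known from brain, had no read in any culture.

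A listed 0 can come from the way reads were assigned, so the genes were checked for overlap with others. Mrpl53 and Exosc6, which growing cells need, were also listed at 0, and Vps25 and Rpl24 had 28 and 54 reads over all cultures. Exonic bases shared with another gene on the same strand made up 88.0% of Mrpl53, 100% of Exosc6, 67.2% of Vps25 and 47.0% of Rpl24. For Foxo1, Foxo6, Rragd, Prkaa2, Prkab1 and Sgk1 that share was 0%, and at most 0.243% of their 50-base words occur in transcripts of another gene. Foxo1 has an antisense gene over 7.78% of its exonic bases.

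The TSC complex pairs TSC1 with the GTPase-activating subunit TSC2 and the small subunit TBC1D7. Tsc2 was read at 102, 102 and 98.03 CPM and Tsc1 at 56.3, 56.4 and 54.1 CPM. Per kb, Tsc2 was 2.23 ± 0.00474 times Tsc1 (SD, n = 3). Tsc1 had 1805 to 2010 reads per culture, so counting error in this ratio is wider than its SD. The small SD therefore cannot show that the balance was held. Tbc1d7 stood at 15.6, 12.9 and 13.96 CPM, which is 0.744 ± 0.0714 times Tsc1 per kb. The target of the complex, Rheb, was read at 55.7, 56.9 and 57.4 CPM, and its relative Rhebl1 at 8.02, 5.76 and 5.94 CPM. Rheb held 77.3 ± 3.54% of the family signal per kb, with Rhebl1 taking more in culture 1 (26.8%) than in cultures 2 (20.5%) and 3 (20.9%). Rhebl1 shares 18.0% of its exonic bases with Dhh on the same strand.

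Genes of both mTOR complexes were detected, 7 of 7. Mtor, the kinase subunit, lies on the plus strand of chromosome 4 (148448611 to 148557683) and stood at 86.004, 92.7 and 93.4 CPM, or 8.97 ± 0.405 CPM per kb. Rptor, the mTORC1 scaffold, stood at 59.6, 61.6 and 63.0 CPM, and Rictor, the mTORC2 scaffold, at 94.6, 89.7 and 87.5 CPM. Per kb, the Rptor level was 0.853 ± 0.0570 times the Rictor level, and 0.959 times with the longest transcript as the length. Mapkap1, which encodes the mTORC2 subunit SIN1, had the highest level per kb of the 7 genes at 14.7 ± 0.749 CPM per kb, 1.64 ± 0.0342 times Mtor.

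The remaining mTOR complex genes lay below Mtor per kb. Mlst8, a subunit of both complexes, stood at 27.1, 25.03 and 26.2 CPM and at 0.658 ± 0.0541 times Mtor per kb. Akt1s1, the mTORC1 inhibitor PRAS40 that AKT phosphorylates, stood at 11.98, 11.7 and 15.4 CPM, with culture 3 above the others. Deptor, an inhibitor of both complexes, was the lowest detected pathway gene per kb, with 18.7, 17.5 and 18.3 CPM and 0.228 ± 0.0167 times Mtor per kb. Of the Mlst8 exonic bases 22.5% lie opposite Bricd5.

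S6 kinases carry the mTORC1 signal to translation. Rps6kb1 stood at 68.4, 66.1 and 60.4 CPM and Rps6kb2 at 24.6, 21.1 and 18.7 CPM, both with culture 3 lowest. Rps6kb1 held 64.5 ± 1.82% of the pair per kb. Of the Rps6kb2 exonic bases 23.7% lie opposite Coro1b or Ptprcap.

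Rag GTPases work as a RagA or RagB subunit paired with RagC or RagD. Rraga had 49.1, 49.2 and 49.2 CPM, with a coefficient of variation of 0.0963%, the smallest of the 30 detected genes. With 1573 to 1828 reads per culture, counting error is larger than this spread. Rragb, an X-linked paralogue, stood at 40.5, 40.8 and 38.4 CPM and held 36.8 ± 0.778% of the pair per kb. Rragc stood at 92.3, 96.1 and 95.2 CPM, and Rragd had no read. Per kb, Rragc was 0.931 ± 0.019 times Rraga (SD, n = 3). With the longest transcript as the length it was 1.05 times Rraga, so the order of these genes depends on the length used.

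AMPK is a trimer of a catalytic alpha, a scaffold beta and a nucleotide-binding gamma subunit, and at each position 1 gene gave most of the signal. Prkaa1 (alpha 1) stood at 119, 123 and 119 CPM and Prkaa2 (alpha 2) had no read. Prkab1 (beta 1; chromosome 5, 116013586 to 116024508, minus strand) had 2, 5 and 3 reads, a pooled level with an exact Poisson 95% interval of 0.0465 to 0.178 CPM. Prkab2 (beta 2), outside the list of 36, stood at 37.0, 32.5 and 29.3 CPM and held 99.5 ± 0.237% of the beta signal per kb. Prkag1 (gamma 1) stood at 61.9, 55.96 and 59.95 CPM and held 89.8 ± 0.334% of the gamma signal, with Prkag2 at 10.1 ± 0.335%. Of the Prkag1 exonic bases 43.7% lie opposite an antisense gene. Stk11, which encodes the AMPK-activating kinase LKB1, stood at 125, 121 and 128 CPM.

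**Figure D2:**
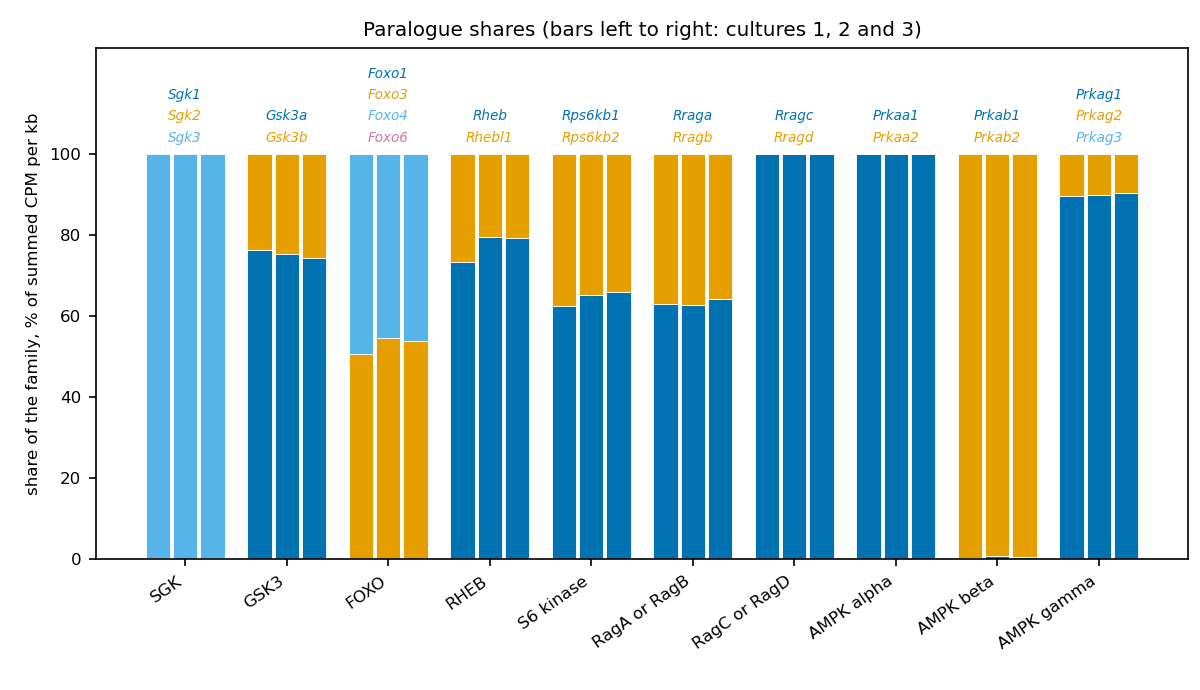
Share of each paralogue in the summed CPM per kb of its family (vertical axis, percent; AKT is not drawn), with 3 bars per family for cultures 1, 2 and 3; names above the bars carry the colour of their segment. In 4 families (SGK, RagC or RagD, AMPK alpha and AMPK beta) 1 gene held over 99%, while Foxo3 and Foxo4 shared the FOXO signal almost evenly.

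The bases before the start sites of 2 paralogue pairs are shown because 1 gene of each pair was detected and the other was not. Windows are the 250 bases before the start site in the RefSeq table (GRCm38.p6), 5′ to 3′ on the strand of the gene, with every CG dinucleotide in capitals. They lie at chr5:116024429-116024678 (minus strand, Prkab1), chr3:97657962-97658211 (plus strand, Prkab2), chr3:52268087-52268336 (plus strand, Foxo1) and chr10:42276696-42276945 (minus strand, Foxo3).
Prkab1: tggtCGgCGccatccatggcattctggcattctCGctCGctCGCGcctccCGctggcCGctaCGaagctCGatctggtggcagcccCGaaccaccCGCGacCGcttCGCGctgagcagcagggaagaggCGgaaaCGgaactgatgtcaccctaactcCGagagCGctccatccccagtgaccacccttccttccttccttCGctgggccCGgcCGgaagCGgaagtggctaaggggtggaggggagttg
Prkab2: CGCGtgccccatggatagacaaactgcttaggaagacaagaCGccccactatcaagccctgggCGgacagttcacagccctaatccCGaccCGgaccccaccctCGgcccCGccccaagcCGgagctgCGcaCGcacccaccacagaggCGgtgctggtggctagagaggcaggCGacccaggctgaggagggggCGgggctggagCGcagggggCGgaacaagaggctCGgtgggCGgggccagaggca
Foxo1: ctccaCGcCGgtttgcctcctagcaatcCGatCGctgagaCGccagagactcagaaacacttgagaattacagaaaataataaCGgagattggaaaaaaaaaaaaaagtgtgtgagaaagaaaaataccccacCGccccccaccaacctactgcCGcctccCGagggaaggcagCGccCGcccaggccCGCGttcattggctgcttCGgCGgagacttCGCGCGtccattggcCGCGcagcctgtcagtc
Foxo3: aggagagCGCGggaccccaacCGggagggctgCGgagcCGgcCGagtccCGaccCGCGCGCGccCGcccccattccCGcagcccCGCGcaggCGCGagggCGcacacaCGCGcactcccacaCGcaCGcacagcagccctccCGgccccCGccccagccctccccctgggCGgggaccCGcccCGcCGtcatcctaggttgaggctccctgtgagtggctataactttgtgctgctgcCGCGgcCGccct
The Prkab1 window held 24 CG dinucleotides and the Prkab2 window 18, so the nearly unread gene had more. The Foxo1 window held 20 and the Foxo3 window 31. The median over all 32851 RefSeq windows was 6, so all 4 windows were CG-rich, whether the gene was detected or not. Other paralogues with and without reads are not shown. The Rragd window (no read) held 5 and the Rragc window 24. The Prkaa2 window (no read) held 24 and the Prkaa1 window 45. Sgk1 windows held 2 to 22. Over all matched windows the median was 17 for detected pathway genes (31 windows of 25 genes) and 6 for undetected ones (10 windows of 5 genes). Most of those 10 windows belong to Sgk1, so the 6 does not stand for the undetected genes as a set. A link with reads was not tested.

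The genes that respond to stress and nutrients were the highest. Txnip lies on the plus strand of chromosome 3 (96557957 to 96561883) and stood at 1861, 1659 and 1590 CPM in cultures 1, 2 and 3, or 545 ± 44.98 CPM per kb, the 99.5 percentile of detected genes. Ddit4, which encodes the mTORC1 inhibitor REDD1 that acts through the TSC complex (chromosome 10, 59949669 to 59951834, minus strand), stood at 162, 174 and 202 CPM, or 102 ± 11.7 CPM per kb, the 96.7 percentile. The cultures ran in opposite orders for these genes: culture 1 was highest for Txnip and lowest for Ddit4, and culture 3 the reverse. The Txnip to Ddit4 ratio per kb was 6.45, 5.36 and 4.42 in cultures 1, 2 and 3. Txnip lies opposite the antisense gene Gm15441 over 19.4% of its exonic bases.

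Txnip is a known FOXO target and Akt1 encodes the kinase upstream of FOXO, and their windows are shown because both hold the forkhead word GTAAACA, searched on both strands and given in capitals. The Txnip window lies at chr3:96557707-96557956 (plus strand) and the Akt1 window at chr12:112674885-112675134 (minus strand).
Txnip: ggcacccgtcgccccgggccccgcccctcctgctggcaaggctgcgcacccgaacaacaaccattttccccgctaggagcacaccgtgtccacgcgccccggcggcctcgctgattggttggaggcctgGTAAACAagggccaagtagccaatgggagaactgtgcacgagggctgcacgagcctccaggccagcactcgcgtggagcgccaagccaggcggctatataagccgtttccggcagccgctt
Akt1: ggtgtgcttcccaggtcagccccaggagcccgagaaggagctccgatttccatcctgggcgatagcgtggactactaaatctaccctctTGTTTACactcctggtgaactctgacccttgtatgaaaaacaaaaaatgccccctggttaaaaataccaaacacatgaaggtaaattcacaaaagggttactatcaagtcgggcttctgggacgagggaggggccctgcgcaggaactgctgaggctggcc
The word began 121 bases before the start site of Txnip, and on the other strand 161 bases before that of Akt1. RefSeq windows were matched for 30 of the 36 genes, 41 windows in all, of which 4 held the word, from the genes Txnip, Akt1 and Mapkap1. Mapkap1 has 2 overlapping windows that both hold it, and Akt1 has 2 windows of which the other does not. Of all windows 3.17% held it.

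In the order of levels per kb, Txnip and Ddit4 were followed by Akt1 (49.3), Gsk3a (42.4) and Rraga (30.4 CPM per kb). Rragc, Stk11, Prkag1, Foxo3 and Prkaa1 came next at 28.3 to 25.8 CPM per kb, and each overlapped its neighbour in that order over the cultures, so neighbours among them cannot be ranked. Prkaa1 (25.5, 26.4 and 25.6 CPM per kb) lay wholly below Rragc (27.6, 28.8 and 28.5) and Stk11 (27.3, 26.5 and 28.01 CPM per kb). Of 29 neighbouring pairs 12 overlapped. Mtor (8.97 CPM per kb) stood at the 51.3 percentile of detected genes, the lower ranks held Tsc1, Rptor, Akt1s1, Rps6kb2 and Tbc1d7 between 4.70 and 3.50 CPM per kb, and Rhebl1 (2.17) and Deptor (2.05) overlapped at the foot. With 3 cultures a two-sided exact sign-flip test of a ratio cannot give a p below 0.25, so ratios are given with their SD and no test. The rank of Sgk3 depended most on the length, from 23 with the exonic length to 14 with the longest transcript.

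**Figure D3:**
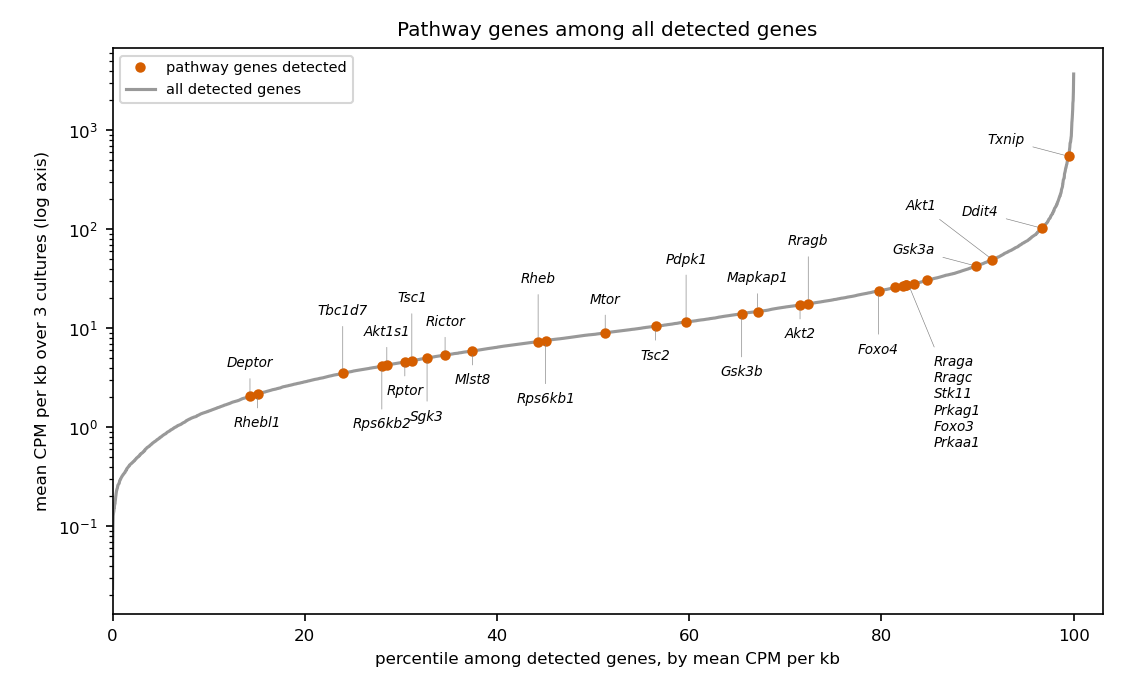
Mean CPM per kb over 3 cultures (vertical log axis) against the percentile among detected genes (horizontal axis), for the pathway genes (points) and all detected genes (line). The pathway genes spread from Deptor at the 14.3 percentile to Txnip at the 99.5 percentile.

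Whether the cultures differed by more than counting noise was asked with a Poisson chi-square test of heterogeneity. It took in the 13140 genes averaging 10 reads or more, and p-values were adjusted over all of them (Benjamini-Hochberg). Of the 30 pathway genes tested 16 differed beyond counting noise at an adjusted p below 0.05, beside 32.8% of all tested genes, and 14 did not pass. The pathway genes had more reads than most (median 77.1 CPM when detected, beside 39.7 over all detected genes), which makes small differences easier to call. The differences were small: the median ratio of the highest to the lowest culture was 1.08 for pathway genes and 1.11 for all tested genes, and 20 of 30 pathway genes had a ratio of 1.1 or less. A negative binomial variance was also used, with a common dispersion of 0.005 fitted to these same libraries. This is a coefficient of variation of 7.07% between cultures. With this variance the chi-square test called 0 of 30, beside 3.66% of all tested genes. An unadjusted p below 0.05 was reached by 3, and no share over all tested genes was computed at that threshold. The test compares 1 library per culture and no conditions.

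Txnip (adjusted p = 2.5e-168, ratio 1.17), Ddit4 (adjusted p = 8.7e-35, ratio 1.25) and Foxo3 (adjusted p = 6.8e-11, ratio 1.13) had the strongest calls in the chi-square test. These 3 alone of the 16 passed with each culture left out in turn, with adjusted p of the chi-square test up to 6.68e-11, 0.0019 and 0.0461 over all alternatives but the negative binomial variance. Foxo3 and Ddit4 were highest in culture 3 and lowest in culture 1, and Txnip the other way round. The mitochondrial share of reads also fell in the order of cultures 1, 2 and 3, as Txnip did, and its part in the difference was not tested. Without culture 1 the number of pathway genes called by the chi-square test dropped to 7, against 13 without culture 2 and 11 without culture 3.

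**Figure D4:**
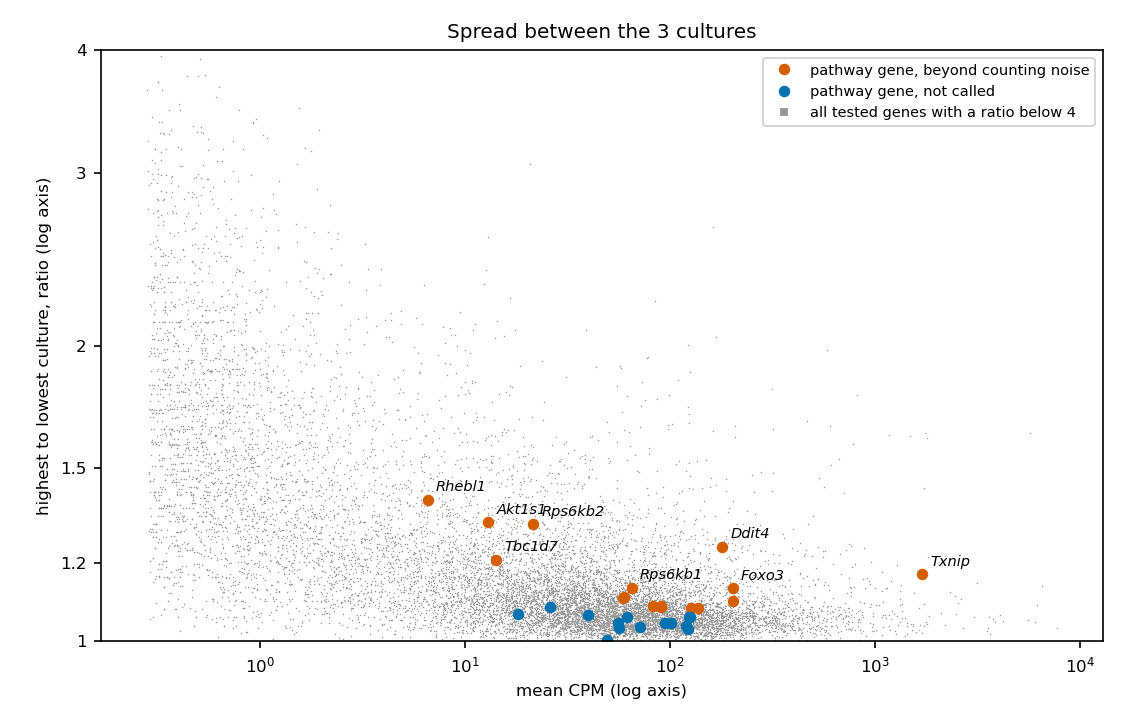
Ratio of the highest to the lowest culture (vertical log axis) against mean CPM (horizontal log axis), for pathway genes called beyond counting noise (orange), pathway genes not called (blue) and all tested genes (grey; 40 genes with a ratio of 4 or more are not drawn). The pathway genes lie at ratios up to 1.39 (Rhebl1).

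Rhebl1 (257, 195 and 221 reads, ratio 1.39), Akt1s1 (384, 395 and 573 reads, ratio 1.32), Rps6kb2 (788, 715 and 695 reads, ratio 1.32) and Tbc1d7 (499, 436 and 519 reads, ratio 1.21) passed the chi-square test with adjusted p = 0.00179, 5.6e-05, 6.5e-06 and 0.0426. In the chi-square test the calls of Rhebl1 (adjusted p = 0.897) and Rps6kb2 (0.133) ended without culture 1, that of Akt1s1 (0.858) without culture 3, and that of Tbc1d7 without culture 1 (0.506) or culture 2 (0.191). Rhebl1 and Prkag1 lie on the minus strand of chromosome 15, with 46256 bases between them, and both were highest in culture 1 and lowest in culture 2. The same held for Foxo4 on chromosome X and Tbc1d7 on chromosome 13, and a part of the region in the pattern was not tested. Rps6kb1 (adjusted p = 5.7e-04 in the chi-square test, ratio 1.13) was highest in culture 1 and lowest in culture 3 like Rps6kb2, and its call ended without culture 3 (0.49).

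The other calls had ratios of 1.11 or less. Akt1 (adjusted p = 4.2e-07 in the chi-square test, ratio 1.098) and Mapkap1 (0.0182, ratio 1.11) were highest in culture 3, as was Mtor (0.00911, ratio 1.09), and Rictor (0.0243, ratio 1.08) in culture 1. Foxo4 (0.0112, ratio 1.09) and Prkag1 (0.0208, ratio 1.11) were lowest in culture 2, and Gsk3b (0.00106, ratio 1.08) and Pdpk1 (0.00702, ratio 1.08) in culture 1. Each of these 8 calls ended when at least 1 culture was left out: Pdpk1, Gsk3b, Mtor, Rictor, Mapkap1 and Prkag1 without culture 1, Foxo4 and Prkag1 without culture 2, and Akt1, Rictor and Mapkap1 without culture 3. The 14 genes that did not pass were Akt2, Gsk3a, Sgk3, Tsc1, Tsc2, Rheb, Rptor, Mlst8, Deptor and Stk11, all 3 Rag genes with reads, and Prkaa1.

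**Figure D5:**
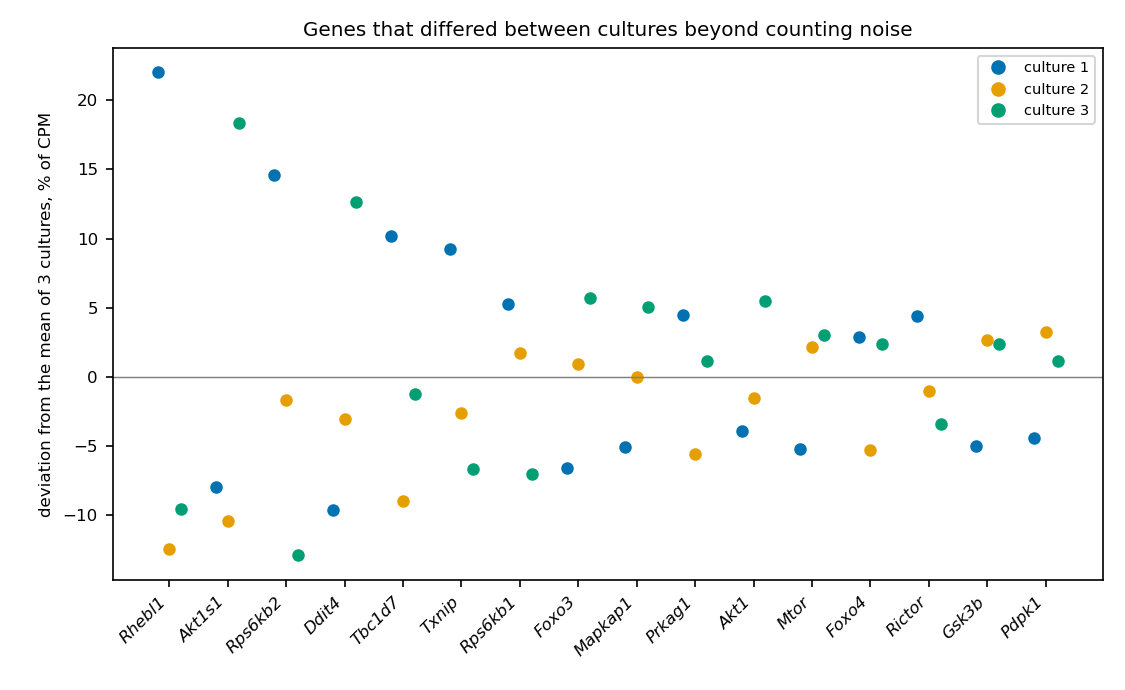
Deviation of each culture from the mean of the 3 cultures (vertical axis, percent of CPM) for the 16 genes that differed beyond counting noise, ordered by their ratio of highest to lowest culture. Culture 1 stands apart for Rhebl1, culture 3 for Akt1s1, and Txnip and Ddit4 run in opposite orders.

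Of the called pathway genes 8 were highest in culture 1 (26.7% of those tested, beside 16.6% of all tested genes), 2 in culture 2 (6.67%, beside 6.04%) and 6 in culture 3 (20%, beside 10.2%). These shares also carry the higher call rate of the pathway genes (53.3%, beside 32.8%). Among the 4304 called over all tested genes, 2175 were highest in culture 1, 793 in culture 2 and 1336 in culture 3. By the lowest culture, 7 called pathway genes were lowest in culture 1, 5 in culture 2 and 4 in culture 3. Among the 4304 the counts were 1528, 963 and 1813, or 11.6%, 7.33% and 13.8% of all tested genes.

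Around these genes, 88 further genes of the pathway were examined in 6 lists, and 65 were detected, beside 19.9% of all genes and 45.9% of protein-coding genes. Of the 66 tested 26 differed between cultures beyond counting noise, beside 32.8% of all tested genes; 14 were highest in culture 1, 6 in culture 2 and 6 in culture 3. Among the 4304 called over all tested genes, 2175 were highest in culture 1 (16.6% of those tested), 793 in culture 2 (6.04%) and 1336 in culture 3 (10.2%). Without culture 1 the count was 8, with no share over all tested genes computed for that setting. With the negative binomial variance the chi-square test called 0, beside 3.66% of all tested genes. An unadjusted p below 0.05 was reached by 4, again with no share over all tested genes. The amino acid arm that loads the Rag GTPases was read almost in full, with 24 of 26 genes detected (92.3%) and 7 of 25 tested called (28%). Seh1l, a nucleoporin also found in the GATOR2 complex, led at 65.1 ± 0.815 CPM per kb, followed by the Ragulator genes Lamtor4 (55.9 ± 3.82) and Lamtor2 (48.4 ± 0.535 CPM per kb). Castor1, an arginine sensor, stood at 1.47, 0.767 and 1.05 CPM and was not called detected, and Sesn3 was listed at 0.

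Among mTORC1 substrates and outputs 12 of 14 genes were detected (85.7%, beside 45.9% of protein-coding genes), and 6 of 12 tested were called (50%, beside 32.8% of all tested genes). As in all 6 lists, none of these calls was made with the negative binomial variance. Rps6, the ribosomal protein that S6 kinases phosphorylate, led at 574 ± 42.2 CPM per kb, then the initiation factor gene Eif4b (319 ± 6.02) and Eif4ebp2 (85.3 ± 2.35 CPM per kb), a repressor of cap-dependent translation. Rps6 was read at 846, 979 and 905 CPM in cultures 1, 2 and 3, with culture 2 highest, while Txnip was highest in culture 1. Of the 50-base words of Rps6 43.8% also occur in other genes, mainly in Rps6-ps4, so its level is uncertain. Grb10 had 2 reads and Eif4ebp3 5 reads over all cultures, and 67.3% of the Eif4ebp3 exonic bases are shared with another gene on the same strand.

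Of 21 known FOXO target genes 11 were detected and 10 were not, a share of 52.4% beside 45.9% of protein-coding genes, and 5 of 11 tested were called (45.5%, beside 32.8% of all tested genes). Bnip3, a mitophagy receptor, led at 384 ± 11.3 CPM per kb, followed by the transcription cofactor gene Cited2 (125 ± 7.87) and the catalase gene Cat (74.8 ± 2.15 CPM per kb). Of the 50-base words of Bnip3 16.5% also occur in other genes. Fasl, Fbxo32 and G6pc were listed at 0. Cited2 stood at 291, 303 and 329 CPM and Bnip3 at 841, 881 and 889 CPM in cultures 1, 2 and 3, lowest in culture 1 and highest in culture 3. The other called targets had other orders: Cdkn1b, a cell cycle inhibitor gene, stood at 156, 142 and 137 CPM, Gadd45a was highest in culture 1 and Cat in culture 2.

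AKT relatives and regulators were detected for 5 of 9 genes (55.6%, beside 45.9% of protein-coding genes), and 2 of 5 tested were called (40%, beside 32.8% of all tested genes). Among the highest were Trib3, a pseudokinase that binds AKT (8.29 ± 0.391), and the AKT phosphatase gene Phlpp1 (6.14 ± 0.624 CPM per kb). The mTORC2 partner gene Prr5 was listed at 0, and Tcl1 had 1 read. Other AMPK subunits and upstream genes were detected for 8 of 9 (88.9%, beside 45.9%), and 3 of 8 tested were called (37.5%, beside 32.8%). The LKB1 scaffold genes Cab39 (28.6 ± 0.60) and Cab39l (11.6 ± 0.41) led, with the kinase gene Camkk2 at 7.55 ± 0.518 CPM per kb, and Prkag3 had 3 reads.

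The relatives and regulators of Txnip and Ddit4 were detected for 5 of 9 genes (55.6%, beside 45.9% of protein-coding genes), and 3 of 5 tested were called (60%, beside 32.8% of all tested genes). Mlxip, which encodes the glucose-responsive factor MondoA that acts on Txnip, stood at 144, 135 and 128 CPM in cultures 1, 2 and 3 (16.3 ± 0.945 CPM per kb). Txnip had the same order of cultures, and so had Rps6kb1, Rps6kb2 and Cdkn1b. A link between Mlxip and Txnip was not tested. The Mlxip partner gene Mlx averaged 16.3 ± 0.587 CPM per kb. Arrdc1 stood at 47.1, 38.9 and 36.3 CPM (16.2 ± 2.26 CPM per kb). Arrdc4, the closest arrestin-domain relative of Txnip and like it a known MondoA target, was listed at 0 in every culture, and Ddit4l was also listed at 0.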

How the data were processed

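Polyadenylated RNA of 3 Ba/F3 cultures was made into strand-marking libraries and read as 50-base single ends. The authors aligned reads to GRCm38 with HISAT2 and counted them with GenSum, per the series' design text; the sources used here give neither versions nor the strand setting. The deposited values are log2(reads per 10000000 + 1), read from the values themselves. Undoing the log gave whole reads in 100% of entries, with a largest relative deviation of 3.6e-09.

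Identifier and symbol named the same gene in 0 of 23001 rows with reads. Cultures 1 and 2 follow the identifiers and culture 3 the symbols, so culture 3 was joined by coordinates in GENCODE M21 (54909 rows) or symbol (313 rows); 264 rows had no match and 22 were dropped as duplicates. The authors' average mixes genes and was not used.

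CPM used the full library sums, and lengths the union of exons. The design assumed a count package, which log2 values do not allow. Chi-square tests were therefore run on the recovered reads (Python 3.11.15, scipy 1.17.1) and tested on simulated data. The simulated dispersion was below the 0.005 fitted to these libraries, so that check does not cover their spread. Named were all 36 genes, every paralogue, and of each list the 3 highest and up to 3 undetected genes; Mrpl53, Exosc6, Vps25 and Rpl24 were added after their values were seen. Some genes that this rule names are not reported here, though the counts over lists and families include them. Genes and lists were chosen with earlier results of these data known. Nothing says that the cultures differ beyond being grown apart, so p-values measure only the spread between these libraries. Alternatives covered detection thresholds, read minimums, scaling, length, variance, the join and leaving out each culture. Sequences are from RefSeq.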

Additional observations from a re-analysis of the deposited data

How the results depend on the processing

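The 30 detected pathway genes stayed 30 at thresholds of 0.5 and 5 CPM, with detection in at least 1 culture, with median-of-ratios or trimmed mean of M values scaling, and without any culture; on the rows as deposited, without the join, the count was 29. The 16 calls became 15 to 16 with other read minimums or scalings, 14 on the rows as deposited, 7 to 13 with 1 culture left out and 0 with the negative binomial variance; Tbc1d7 and Rictor lost and Stk11 gained a call under both other scalings. For the 88 further genes, 65 or 66 were detected under each of these settings, and the 26 calls became 25 to 28 with other read minimums or scalings, 33 on the rows as deposited, 8 to 23 with 1 culture left out and 0 with the negative binomial variance. The leading paralogue was the same in 11 of 11 families with the longest transcript or without any culture, and in 10 without division by length (GSK3). The median level over the 36 genes was 60.6 ± 0.528 CPM (SD of the cultures). It was 59.8 on the rows as deposited and 59.8 to 61.8 with 1 culture left out. The level moved by more than 1 SD for 4 of 36 genes on the rows as deposited and for 0 under the other settings. That 0 is no sign of stability, because leaving out 1 of 3 cultures cannot move a mean by more than 1 SD. The factors of both other scalings were 0.988 to 1.01, which leaves little room for a move. No paired analysis was possible because the samples form 1 group. Depth limits the unread genes to the levels of 3 reads given above, and intervals cover counting error only.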
